A study of Mus musculus with 8 samples.

Results

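The 27 genes described here build the inhibitory synapse of the brain, where neurons release GABA or glycine. They were taken as probe sets that the array annotation gives to a single gene symbol on a list of 27 names. All 27 were measured, among 22180 named genes. Where a gene had several probe sets, the one of highest mean over the 8 arrays was used. Of the 27, 18 encode receptor subunits and 9 encode proteins that make, break down, carry or anchor the transmitter or its receptors. The RNA came from hippocampal neurons of C57BL/6J mice, an inbred laboratory strain, taken from E18.5 embryos and cultured for 11 days. The untreated group held 4 arrays, and the KCl group held 4 arrays of cultures kept in 55 mM KCl for 4 h, which depolarises neurons. The labels name no mutation or transgene in either group, and both had been grown with AraC, which kills dividing cells. The labels gave each array its own mouse number, and an E18.5 hippocampal culture also holds glia.

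GABA is made from glutamate by glutamate decarboxylase, loaded into vesicles, released, and then taken up and broken down by neurons and astrocytes. It acts on GABA-A receptors, chloride channels of several subunits drawn from a large gene family, and on GABA-B receptors, which are coupled to G proteins. Glycine receptors are chloride channels of the same superfamily. The scaffold protein gephyrin and the adhesion protein neuroligin-2 hold GABA-A and glycine receptors opposite the terminals that release the transmitter. In the hippocampus, GABA comes from interneurons that are scattered among far more numerous excitatory cells.

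The median of all probe sets was 4.44 to 4.48 on the log2 scale on every array, and no value can be read as the absence of a transcript. The labelled cell type had its markers: the mean log2 level of 12 pan-neuronal genes was 9.76 to 10.15 on untreated and 9.73 to 10.15 on KCl arrays. The astrocyte genes (11 measured) averaged 7.92 to 8.77 and 7.94 to 8.54. The markers of oligodendrocytes (9), microglia (9) and vascular or meningeal cells (11) averaged at most 4.94. Single genes differed: of the oligodendrocyte markers, Olig1 and Olig2 averaged 7.32 and 6.75 on untreated arrays, and Sox10 3.79. None of these 3 lists, the pan-neuronal genes or 12 excitatory neuron markers held a gene past limma's threshold after KCl, and 1 of their genes had an unadjusted limma p under 0.05. That gene was Neurod6, a factor of excitatory neurons (log2 change -0.64, limma adjusted p = 0.0843). The smallest p of the other 4 lists were those of Syp (-0.31), Mag (-0.19), Aif1 (-0.19) and Dcn (0.24). The 2 arrays numbered 1 stood apart, with scores of -48.6 and -43.2 on a first principal component that held 36.6% of the variance, against -4.58 to 26.6 for the other 6 arrays. Same-numbered arrays of the 2 groups deviated together, so each call below was also tested with the replicate number as a block, which compares arrays within a number.

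After 4 h of KCl, 1 of the 27 inhibitory synapse genes passed the test: the GABA-A subunit gene Gabrg1 rose 1.77-fold. The other 26 did not pass. The test was limma's moderated test, adjusted over 22180 genes, with a threshold of 0.05. Over all genes 2.36% passed in either direction, 1.34% rose and 1.02% fell, and 1 of 27 is 3.7%. The members' count therefore lay near the background. The median log2 change was -0.03 over the members and -0.01 over all genes, and the members ranged from -0.49 (Gad2) to 1.08 (Gad1). An unadjusted limma p under 0.05 was found for 4 members, Gabra6, Gabrg1, Gabrd and Gad1, which is 14.8% against 13% of all genes. The KCl arrays lay entirely above the untreated ones for 2 members, Gabra6 and Gabrg1, and entirely below for none, which is 7.41% against a background of 8.16% in either direction and 3.83% upward.

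For most members the intervals bounded the change in array value, which at low levels can understate the change in RNA. The 95% limma interval of the log2 change lay between -1 and 1, which leaves out a 2-fold change either way, for 24 of the 27 (88.9%, against 87.3% of all genes). The 3 whose interval reached further were Gabrg1, Gad1 and Gad2. The interval lay between -0.5 and 0.5 for 14 members (51.9%, against 52.9% of all genes). Both counts include Gabra6, Gabre, Gabrq, Glra1 and Glra3, which were below the median of their array's probe sets on all 8 arrays. RMA compresses differences at such levels, so their narrow intervals bound little.

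**Figure D1:**
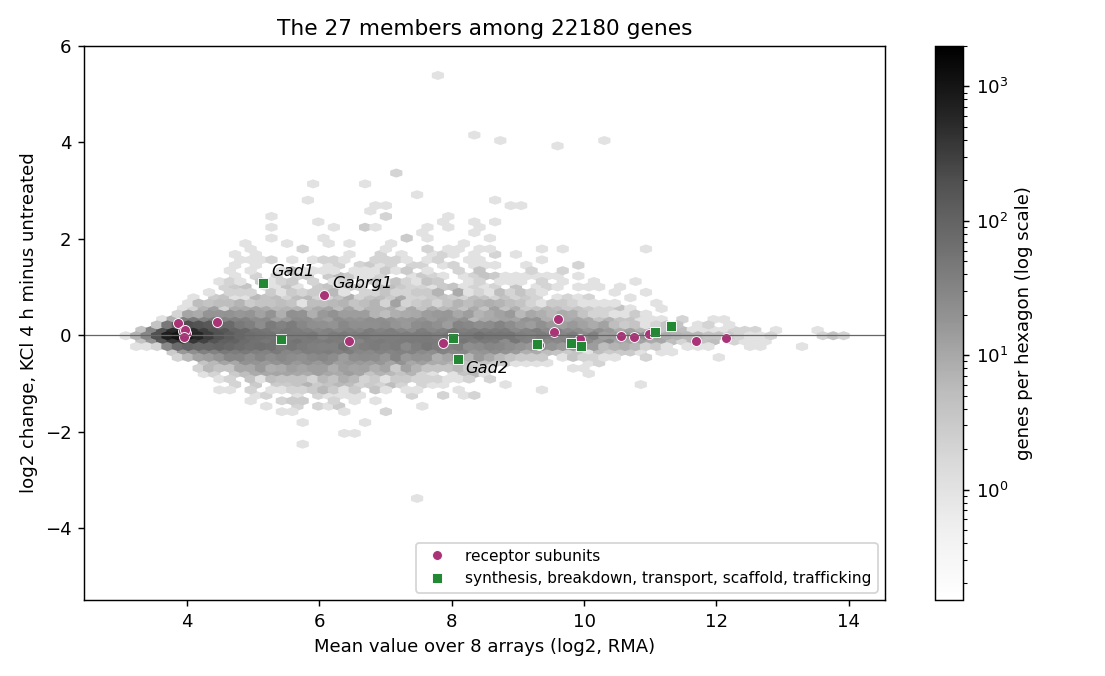
The log2 change after 4 h of KCl (vertical axis) is plotted against the mean log2 value over 8 arrays (horizontal axis). Grey hexagons count all 22180 genes, and coloured points are the 18 receptor subunits and the 9 other members. Most members lie near a change of 0, and Gabrg1 (0.83), Gad1 (1.08) and Gad2 (-0.49) lie furthest from it.

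Gabrg1 encodes the gamma-1 subunit, a rarer alternative to the gamma-2 subunit of most synaptic GABA-A receptors. Its log2 values were 5.42, 5.71, 5.65 and 5.85 on the untreated arrays and 6.29, 6.2, 6.87 and 6.59 on the KCl arrays, in the order of replicates 1 to 4. Every KCl array lay above every untreated array, and all 4 same-numbered pairs rose, by 0.87, 0.49, 1.22 and 0.73. The means were 5.66 ± 0.18 and 6.48 ± 0.31 (SD, n = 4 each), a log2 change of 0.83 (SE 0.165, 95% interval 0.45 to 1.2, limma adjusted p = 0.0418). With the replicate block the limma adjusted p was 0.0258. The rise stayed at 0.70 to 0.92 with any single array left out, but its adjusted p was then above the threshold in 7 of 8 fits, at 0.054 to 0.122. It passed without KCl replicate 2 (0.0454). The call was also lost after repeated quantile normalization (adjusted p = 0.0646) and with trended and robust eBayes (0.0782).

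Gabrg1 is also expressed by glia, and cultures differ in glial content. Of the 11 measured astrocyte genes, 10 did not pass and none rose, 8 were lower and 3 higher with a median log2 change of -0.10, and the list's mean level on KCl arrays lay within the range of the untreated ones. The 1 that fell was Slc1a2, the main astrocytic glutamate transporter, with a log2 change of -0.78 (limma adjusted p = 0.0479, 0.062 with the replicate block, and 0.0212 to 0.14 with single arrays left out). The part of glia in the Gabrg1 result was not tested. In these bulk samples, fewer cells of a type and less RNA per cell cannot be told apart. The upstream sequence of Gabrg1 is shown because it is the member that passed, with 250 bases before and 50 after the annotated start, in lower case throughout because none of the motifs described at the end was found in it (RefSeq, GRCm38.p6).

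Gabrg1, chr5:70842568-70842867, - strand: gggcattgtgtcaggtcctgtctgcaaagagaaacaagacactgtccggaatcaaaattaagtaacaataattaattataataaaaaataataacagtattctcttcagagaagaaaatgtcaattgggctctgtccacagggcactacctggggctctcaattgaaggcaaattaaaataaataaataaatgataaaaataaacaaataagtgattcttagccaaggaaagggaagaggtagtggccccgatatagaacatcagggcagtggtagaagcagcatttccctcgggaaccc

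**Figure D2:**
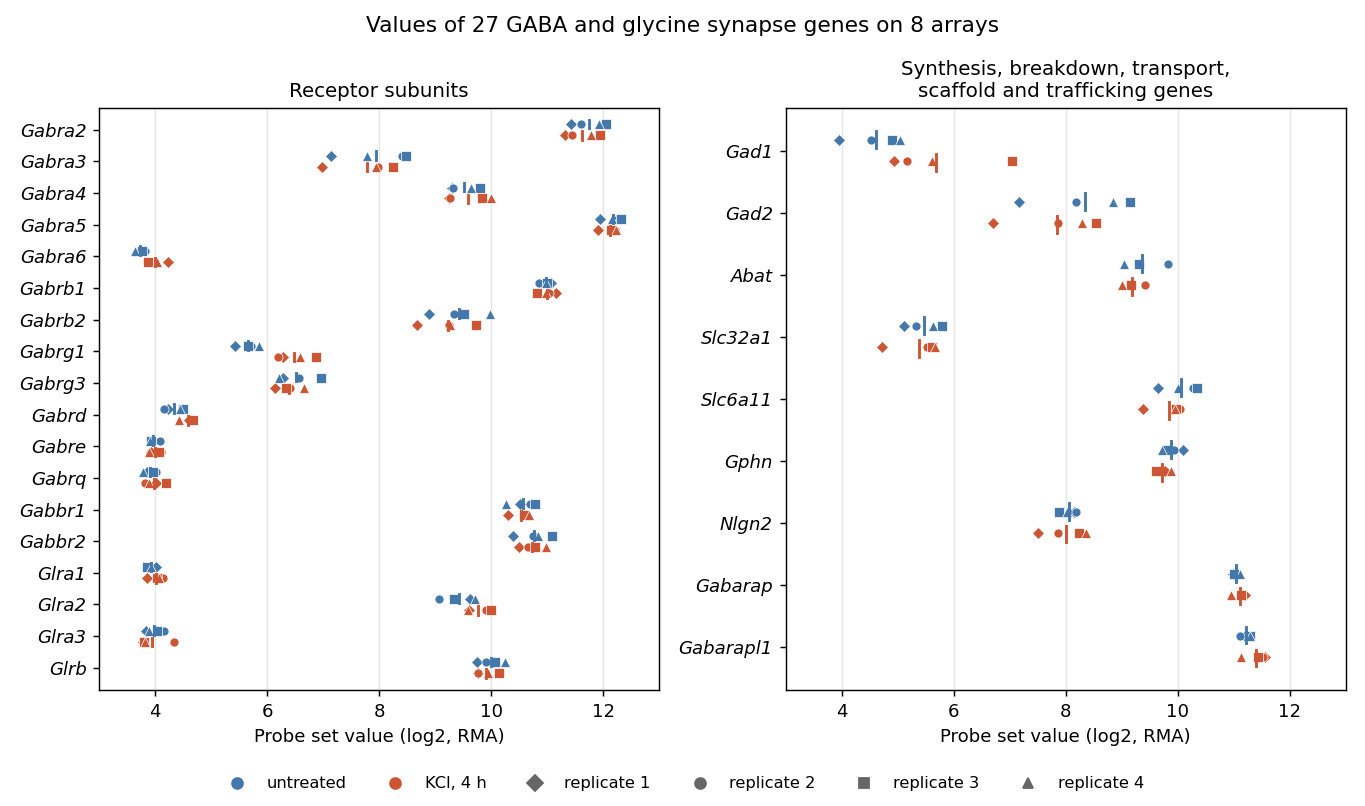
Each point is the log2 RMA value of 1 gene on 1 array, blue for untreated and red for KCl, with the marker shape giving the replicate number and the short bar the group mean. Receptor subunits are on the left and the other members on the right. The 2 colours are apart for Gabrg1 and, at a low level, for Gabra6, and arrays numbered 1 (diamonds) lie low for Gad2 and Gabra3.

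The gene of Gabrg1 lies next to 3 other members in the RefSeq gene order, and these gave no call. Gabra2, Gabra4 and Gabrb1 follow it, with 1 other protein-coding gene among them, between Gabra2 and Gabra4. Gabra2, the alpha-2 subunit of many hippocampal synapses, stood at 11.43, 11.60, 12.05 and 11.92 untreated and at 11.32, 11.44, 11.94 and 11.78 after KCl. The groups overlapped, but each pair was lower after KCl, with differences of -0.15 to -0.11, for a log2 change of -0.13 (95% interval -0.55 to 0.29, or -0.34 to 0.08 with the block), and -0.24 to -0.03 with single arrays left out. Gabra4, an alpha subunit found largely outside synapses, changed by 0.07 (interval -0.40 to 0.54). Gabrb1, a beta subunit, changed by 0.02 (interval -0.21 to 0.26). The intervals of Gabra2 and Gabrb1 lay below the lower bound of Gabrg1, 0.45, while that of Gabra4 overlapped it, and the differences between genes were not tested.

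Among the other GABA-A subunits, none passed. Gabra5, the alpha-5 subunit that is abundant in the hippocampus, stood at 12.17 ± 0.17 untreated and 12.12 ± 0.15 after KCl (SD, n = 4 each), with an interval of -0.31 to 0.22. Its neighbour Gabrg3, a gamma subunit, changed by -0.12 (interval -0.54 to 0.29). Gabra3, an alpha subunit, stood at 7.14, 8.40, 8.48 and 7.79 untreated and 6.97, 7.98, 8.25 and 7.95 after KCl. Both arrays numbered 1 were the lowest of their group for this gene, and the groups overlapped. Its log2 change of -0.17 had an interval of -0.99 to 0.66, or -0.45 to 0.12 with the block, and became 0.01 without untreated replicate 3 and 0.11 without KCl replicate 1. Gabrb2, the beta subunit most common in the adult brain, stood at 8.89, 9.33, 9.52 and 9.97 untreated and 8.67, 9.24, 9.72 and 9.26 after KCl. It was lower in 3 of 4 pairs, and its log2 change of -0.21 (interval -0.82 to 0.41) did not pass. It became -0.02 without untreated replicate 4 or KCl replicate 1, and -0.38 and -0.37 when untreated replicate 1 and KCl replicate 3 were left out.

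Gabrd encodes a subunit of receptors outside synapses, and Gabra6 is an alpha subunit known from cerebellar granule cells. Gabra6 read 3.71, 3.81, 3.77 and 3.63 untreated and 4.22, 3.85, 3.87 and 4.03 after KCl. The KCl arrays lay above the untreated ones, but all 8 values were below the median of their array's probe sets, and the change of 0.26 did not pass (limma adjusted p = 0.339). Gabrd read 4.22, 4.15, 4.49 and 4.45 untreated and 4.61, 4.67, 4.67 and 4.42 after KCl, a change of 0.27 (limma adjusted p = 0.352). It was higher in 3 of 4 pairs, and the groups overlapped through KCl replicate 4. Gabre and Gabrq, the epsilon and theta subunits, and the glycine receptor genes Glra1 and Glra3 were likewise below that median on all 8 arrays, with changes of -0.04 to 0.11. RMA compresses differences at such levels, so these values bound little.

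The GABA-B receptor is an obligate pair of Gabbr1, which binds GABA, and Gabbr2, which reaches the G protein. Gabbr1 stood at 10.57 ± 0.23 untreated and 10.54 ± 0.16 after KCl, and Gabbr2 at 10.77 ± 0.29 and 10.73 ± 0.20 (SD, n = 4 each). Both log2 changes were -0.03, with intervals of -0.34 to 0.28 and -0.41 to 0.34.

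Of the glycine receptor genes, Glra2 encodes the alpha subunit of immature neurons and Glrb the beta subunit that binds gephyrin. Glra2 read 9.62, 9.07, 9.33 and 9.71 untreated and 9.61, 9.90, 9.99 and 9.59 after KCl. Replicates 2 and 3 were higher by 0.83 and 0.67, whereas pairs 1 and 4 differed by -0.01 and -0.11, and the groups overlapped. The log2 change was 0.34 (interval -0.03 to 0.72, limma adjusted p = 0.444), and 0.22 without untreated replicate 2. Glrb stood at 9.99 ± 0.21 and 9.90 ± 0.18 (SD, n = 4 each), with an interval of -0.40 to 0.22.

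**Figure D3:**
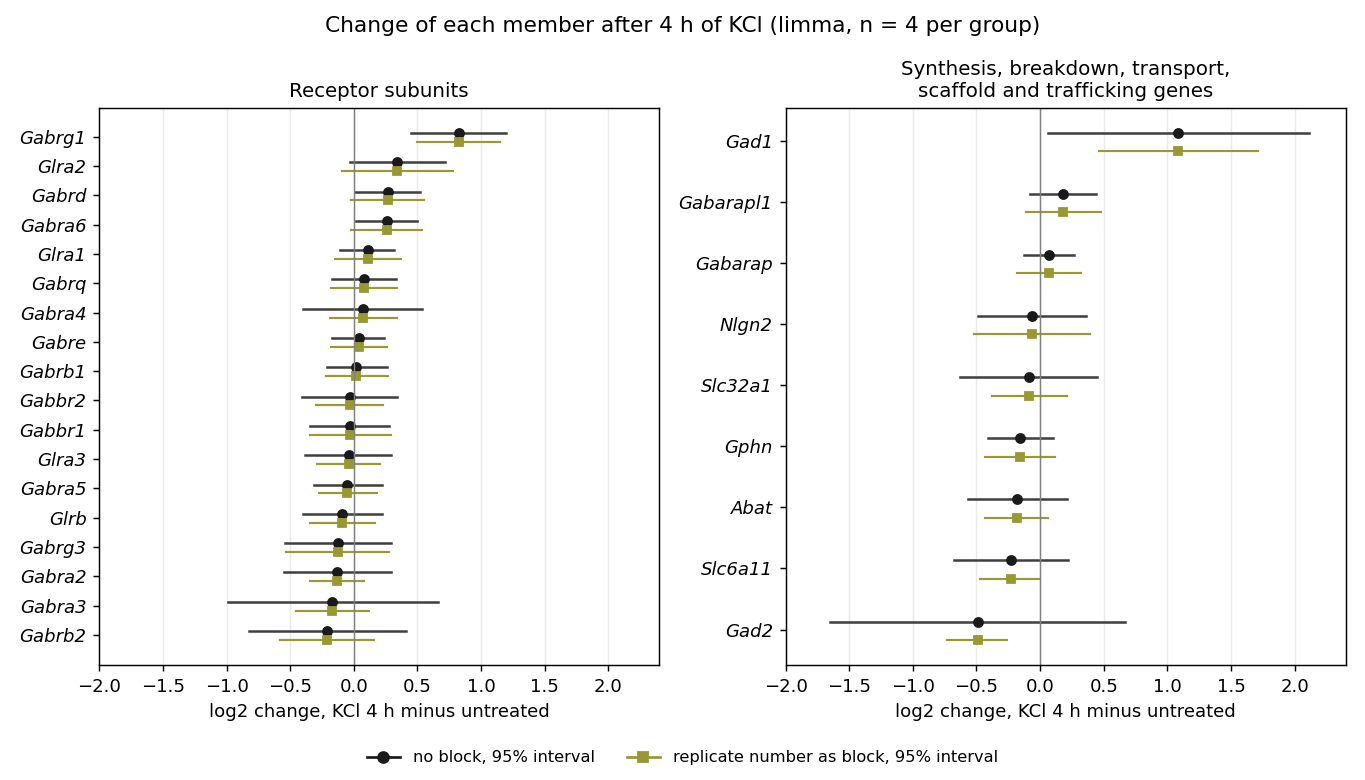
The log2 change of each member (KCl 4 h minus untreated) is drawn with its 95% limma interval, in black without a block and in olive with the replicate number as a block, for 18 receptor subunits and 9 other members. Without the block the interval of Gad2 spans -1.65 to 0.67, and with it -0.73 to -0.26, while that of Gabrg1 lies above 0 either way.

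The 2 genes of GABA synthesis had the largest changes of the 9 remaining members, in opposite directions. Gad1 and Gad2 encode both forms of glutamate decarboxylase, the first making GABA throughout the cell and the second mostly at terminals. Gad1 read 3.96, 4.53, 4.90 and 5.04 untreated and 4.94, 5.16, 7.04 and 5.62 after KCl. It was higher in all 4 pairs, by 0.98, 0.63, 2.14 and 0.57, and KCl replicate 3 was the highest array. The groups overlapped slightly, since KCl replicate 1 lay below untreated replicate 4. The value of untreated replicate 1, 3.96, was below the median of that array's probe sets, 4.47. The other untreated values, 4.53 to 5.04, stood against medians of 4.45 to 4.47. Whether any untreated value lies above background was not assessed. The log2 change of 1.08 (SE 0.45, interval 0.06 to 2.11) did not pass (limma adjusted p = 0.353, 0.0765 with the block), and it was 0.63 without KCl replicate 3.

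Gad2 read 7.17, 8.19, 9.15 and 8.85 untreated and 6.70, 7.87, 8.54 and 8.29 after KCl. The arrays of a group spread widely, with both arrays numbered 1 lowest, and the groups overlapped widely. Within numbers the differences were even: -0.47, -0.32, -0.62 and -0.56. The log2 change was -0.49, or 0.712 of the untreated level, with and without the block. Its SE was therefore 0.508 without the block (limma adjusted p = 0.832) and 0.0983 with it (adjusted p = 0.0458, interval -0.73 to -0.26). Gad2 thus passed in the blocked comparison only. In that comparison 4.44% of all genes passed, 2.43% of all genes upward and 2.01% downward, and the 2 members that passed were Gabrg1 and Gad2. Without the block, single arrays moved the value widely: it was -0.88 without untreated replicate 1, -0.22 and -0.32 without untreated replicates 3 and 4, and -0.11 without KCl replicate 1, and none of the 8 such fits passed (limma adjusted p 0.459 to 0.968). With any same-numbered pair left out and the block kept, the change of Gad2 was -0.55 to -0.45 and its adjusted p 0.0872 to 0.185.

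Gad1os, which by its name lies opposite Gad1, read 5.15 untreated and 4.91 after KCl on average, a change of -0.24 that did not pass (limma adjusted p = 0.557 over named probe sets). The sources used here do not say which strand the labelling keeps.

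Markers of the cells that hold these enzymes were read beside them. None of 22 measured interneuron markers passed. Their log2 change was below 0 for 14 and above 0 for 8, with a median of -0.13. Over all genes 11724 were lower and 10456 higher, with a median of -0.01. In all 4 pairs 6 of the markers were lower and 1 was higher, together 31.8% of the list against 24.2% of all genes. Nkx2-1, 1 of those 6, read 3.72 to 4.12, below the median of each array's probe sets. The smallest p was that of Prox1, a transcription factor of interneurons and also of dentate granule cells, the 1 that was higher in all pairs (log2 change 0.34, limma adjusted p = 0.188). The ends of the list, named after their values were seen, were Lhx6, a transcription factor of interneurons, at -0.62 (interval -1.31 to 0.07, lower in 4 of 4 pairs) and Sst, the gene of the peptide somatostatin, at 0.87 (interval -0.48 to 2.22, higher in 3 of 4 pairs). The mean level of the list was 5.76, 6.25, 6.54 and 6.33 untreated and 5.86, 6.19, 6.38 and 6.22 after KCl. The order of the replicates within each group was that of Gad2, with replicate 1 lowest and 3 highest, and the list means differed less between groups than between replicates. Arrays numbered 1 were the lowest of both groups for 10 of the 22 markers (45.5%), for 11 of the 27 members (40.7%), for 7 of 12 pan-neuronal genes (58.3%) and for 13% of all genes. No astrocyte marker was lowest there in both groups. The part of cell makeup in the Gad1 and Gad2 values was not tested. The promoters of both genes are given because these members had the highest and the lowest log2 change, from 250 bases before to 50 after the annotated start (RefSeq, GRCm38.p6), with the only motif match in capitals.

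Gad1, chr2:70561879-70562178, + strand: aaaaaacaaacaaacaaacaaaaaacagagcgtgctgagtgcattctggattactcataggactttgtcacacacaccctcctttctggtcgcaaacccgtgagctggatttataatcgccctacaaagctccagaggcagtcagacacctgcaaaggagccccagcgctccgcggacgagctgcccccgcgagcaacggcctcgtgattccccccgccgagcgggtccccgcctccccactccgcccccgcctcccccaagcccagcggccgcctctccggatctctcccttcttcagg
Gad2, chr2:22622077-22622376, + strand: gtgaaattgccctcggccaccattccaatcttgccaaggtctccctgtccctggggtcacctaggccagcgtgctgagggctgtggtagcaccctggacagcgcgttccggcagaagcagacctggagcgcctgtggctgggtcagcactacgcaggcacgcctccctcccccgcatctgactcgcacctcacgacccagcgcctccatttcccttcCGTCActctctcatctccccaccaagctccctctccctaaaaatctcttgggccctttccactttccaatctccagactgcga

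**Figure D4:**
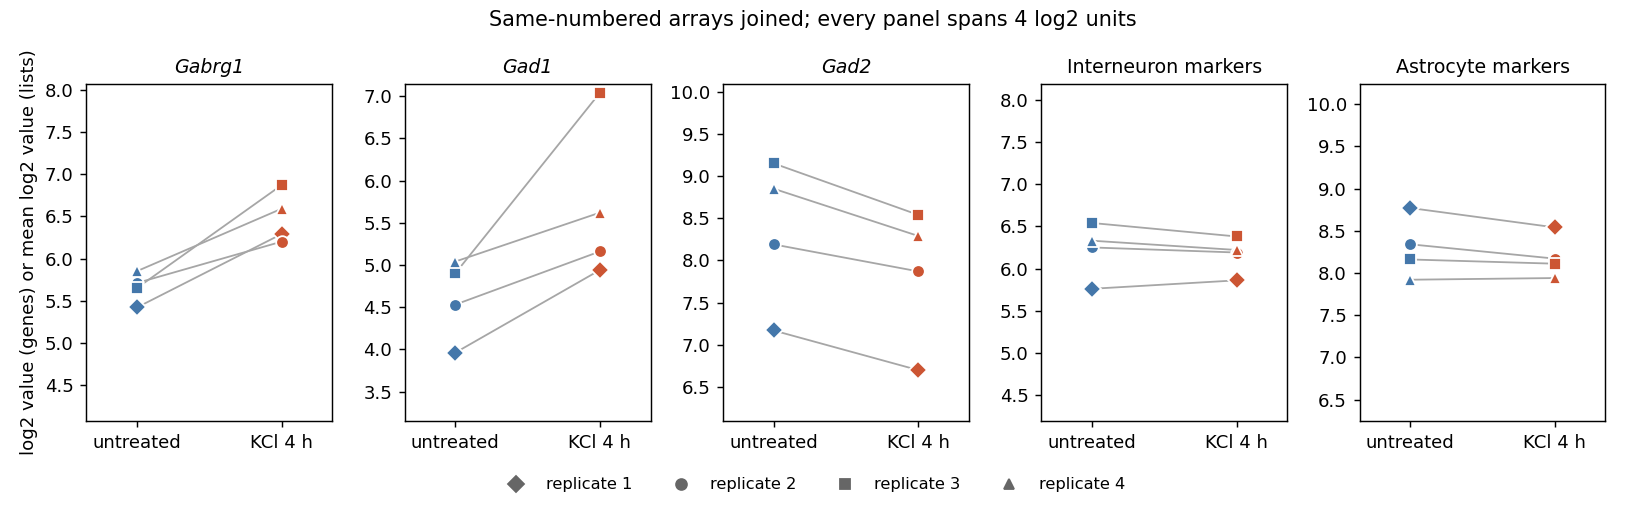
Log2 values of Gabrg1, Gad1 and Gad2 and the mean log2 levels of 22 interneuron and 11 astrocyte markers are plotted for untreated and KCl arrays, with same-numbered arrays joined by a line and every panel spanning the same range. All 4 lines rise for Gabrg1 and Gad1 and all 4 fall for Gad2, while the lines of both marker lists are nearly level.

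None of the 3 genes of GABA breakdown, uptake and vesicle loading passed. Abat encodes GABA transaminase, which breaks GABA down, and read 9.31, 9.83, 9.31 and 9.05 untreated and 9.17, 9.42, 9.17 and 9.0 after KCl. Slc6a11 encodes GAT-3, the transporter that clears GABA into astrocytes, and read 9.66, 10.27, 10.35 and 10.00 untreated and 9.38, 10.04, 9.98 and 9.95 after KCl. Both were lower in 4 of 4 pairs with overlapping groups, and neither passed, at log2 changes of -0.18 (limma adjusted p = 0.802, 0.449 with the block) and -0.23 (0.766, 0.283 with the block). Their 95% intervals were -0.57 to 0.21 and -0.68 to 0.22. Single arrays moved both values: that of Abat was -0.03 or -0.29 when the untreated array numbered 2 or 4, respectively, was left out, and that of Slc6a11 was -0.08 without KCl replicate 1, and -0.14 or -0.37 when the untreated array numbered 3 or 1 was left out. Slc32a1, the vesicular transporter that loads GABA and glycine, stood at 5.47 ± 0.31 and 5.38 ± 0.44 (SD, n = 4 each) and was higher in 2 of 4 pairs, with an interval of -0.63 to 0.45. In all, 7 members moved one way in 4 of 4 pairs: Gabra6, Gabrg1 and Gad1 upward and Gabra2, Gad2, Abat and Slc6a11 downward. That is 25.9%, against 24.2% of all genes.

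Neither anchor of the inhibitory postsynapse passed. Gphn, the gene of gephyrin, stood at 9.89 ± 0.17 and 9.73 ± 0.12 and Nlgn2, the gene of neuroligin-2, at 8.06 ± 0.14 and 8.0 ± 0.39 (SD, n = 4 each), with intervals of -0.41 to 0.10 and -0.49 to 0.36. Gabarap and Gabarapl1 encode ubiquitin-like proteins that bind GABA-A receptors on their way to the membrane and also serve autophagy. Gabarapl1 read 11.21, 11.12, 11.29 and 11.30 untreated and 11.57, 11.52, 11.43 and 11.13 after KCl. It was higher in 3 of 4 pairs, with KCl replicate 4 the exception, for a change of 0.18 (interval -0.08 to 0.44, limma adjusted p = 0.608). Gabarap read 10.99, 11.07, 11.00 and 11.11 untreated and 11.20, 11.14, 11.14 and 10.96 after KCl, a change of 0.07 (interval -0.13 to 0.27). Second probe sets of Gabarap, Abat and Slc32a1 changed by 0.52, -0.14 and -0.04, and none passed (limma adjusted p = 0.805, 0.907 and 0.952 over named probe sets).

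Set side by side, 1 of 18 receptor subunits passed (5.56%) and 0 of the 9 other members, against 2.36% of all genes. An unadjusted limma p under 0.05 was found for 3 receptor subunits (16.7%) and 1 other member (11.1%), against 13% of all genes. The median log2 change was 0.00 over the receptor subunits, 9 of them above 0 and 9 below, and -0.09 over the other members, 3 above and 6 below. All genes had a median of -0.01. By pair, the median was -0.03, -0.05, 0.05 and 0.09 for the receptor subunits and -0.28, -0.22, -0.14 and -0.05 for the others. The median of the other members became 0.04 without KCl replicate 1, and the difference between the classes was not tested.

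A further list held other genes of the pathway, 31 of them measured, and none passed, while 6 had an unadjusted limma p under 0.05 (19.4%, against 13% of all genes). Its median log2 change was -0.05. The 4 with the smallest p were Slitrk3, Trak1, Zdhhc3 and Nlgn3. Slitrk3, an adhesion protein selective for inhibitory synapses, read 9.12, 9.91, 10.39 and 10.04 untreated and 8.40, 9.0, 8.76 and 8.68 after KCl. Every KCl array lay below every untreated one, for a log2 change of -1.16 (SE 0.258). Its limma adjusted p was 0.0623. It passed with the block (0.0182), but with the block kept it did not pass without both arrays numbered 3 (0.0743) or 4 (0.0752). Of the fits with a single array left out it passed in 1, without untreated replicate 1 (log2 change -1.41, adjusted p = 0.0102), and not in the other 7 (0.0875 to 0.156).

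The other 3 of these changed less. Zdhhc3, a palmitoyltransferase of the GABA-A gamma-2 subunit, changed by -0.45 (limma adjusted p = 0.101, but 0.045 without untreated replicate 4). Nlgn3, a neuroligin of excitatory and inhibitory synapses, also changed by -0.45 (adjusted p = 0.158). Trak1, an adaptor of kinesin that also binds GABA-A receptors, changed by 0.39 (adjusted p = 0.0879). Groups did not overlap for 5 of the 31 (16.1%, against 8.16% of all genes), and the fifth was Glra4 (3.94 ± 0.10 and 4.21 ± 0.08, SD, n = 4 each). Like Gabra6, Glra4 lay below the median of each array's probe sets. The chloride transporters that set the direction of GABA currents did not pass: Slc12a2, which loads chloride, changed by 0.32 and was higher in 4 of 4 pairs (adjusted p = 0.39), and Slc12a5, which extrudes it, changed by 0.00 (interval -0.48 to 0.49).

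Promoters were read for motifs linked to activity-dependent transcription. RefSeq held 28 windows for 24 of the 27 members. Searched on both strands, the full cAMP response element TGACGTCA was in 0 of the 28, against 1.79% of all 32851 windows, the AP-1 motif TGANTCA in 0, against 7.81%, and the E-box CACGTG in 0, against 7.15%. The shorter core TGACG, which the full element contains, was in 4 of the 28, those of Gabrb2, Gad2, Glrb and Nlgn2, against 20.8% of all windows. In Gad2 it lay on the opposite strand and began 33 bases before the start. A match is no evidence of binding, and a missing match says only that these letters were not in the window.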

How the data were processed

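RNA of 8 cultures, 4 untreated and 4 given KCl, was measured on Affymetrix whole-transcript arrays. The values are log2 probe set values deposited by the authors. Per the submitters' processing notes these come from RMA and Partek, without version or settings. The sources used here give no build for the array annotation. Of 34472 probe sets, 23521 had 1 symbol. No scanner files were used here, so signal over background was not assessed, and precision is limited by the number of arrays.

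Groups, taken from the titles, were compared with limma 3.58.1 (R 4.3.3; lmFit, eBayes, two-sided, Benjamini-Hochberg over 22180 genes). The fits were tested on simulated data. Both groups carry replicate numbers 1 to 4 while mouse numbers differ. Deviations from group means correlated at 0.64, 0.23, 0.41 and 0.37 for same-numbered arrays, all over 0.1, so numbers were taken to pair arrays. Each of the 8 arrays correlated best with its own number. The highest correlation between arrays of different numbers was 0.3, above the 0.23 of replicate 2. What the numbers stand for is not given. P-values set each change against the spread between these arrays within a group. With the block they set it against the spread left once the replicate number is accounted for.

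Members, lists and tests were chosen with earlier results of these data known. Array-by-array values are given for members past the threshold in either fit, members whose groups do not overlap, and the 3 largest changes each way in each class. Of other pathway genes, the 4 of smallest p were named, and of each marker list those past the threshold and that of smallest p. Figures used matplotlib 3.10.9.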

Additional observations from a re-analysis of the deposited data

Results flagged for a closer look

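In 4 of 62 groups of 4 arrays checked, 1 array lay far from the other 3, with a gap to its nearest neighbour, as a share of the group's range, above Dixon's 95% critical value. Chance gives about 1 in 20. For Glra3 the gap was 0.937 of the range, from KCl replicate 2 at 4.34 against 3.78 to 3.82. For Slc32a1 it was 0.867, from KCl replicate 1 at 4.72 against 5.53 to 5.66. For Slc6a11 it was 0.859, from KCl replicate 1 at 9.38 against 9.95 to 10.04. For Zdhhc3 it was 0.889, from untreated replicate 4 at 7.86 against 8.22 to 8.26.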

How the results depend on the processing

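Of the counts, that over all genes (524) was 985 with the replicate block, 186 to 501 with single arrays left out, and 146 or 293 without both arrays numbered 3 or 4 and with the block. The count of members past the limma threshold was 1, namely Gabrg1, and 2 with the replicate block. It was 0 with quantile normalization repeated, with trended and robust eBayes, without both arrays numbered 1 (with or without the block) and without both arrays numbered 3 or 4 and with the block, and 0 to 1 with single arrays left out, where 1 to 4 members had an unadjusted limma p under 0.05. The count of receptor subunits was 0 under those same alternatives, and 0 to 1 with single arrays left out. Among the 9 other members it was 0, and 1 (Gad2) with the replicate block. Among other pathway genes it was 0, and 1 (Slitrk3) with the replicate block, with quantile normalization repeated, among brighter genes, with trended and robust eBayes, with array weights, without both arrays numbered 1 (with or without the block) and without those numbered 2 and with the block. With single arrays left out it was 0 to 2. The median log2 change of the 9 other members, -0.0859, was -0.2 without both arrays numbered 4 and with the block, and -0.178 to 0.0383 with single arrays left out. That of Gabra3 was -0.44 to 0.11 with single arrays left out. Fits without a pair numbered 2, 3 or 4 were chosen after seeing the data. The block changed no other call of a member, and no scaling moved the median of all genes by over 0.1. With 1 array left out there are fewer samples; the cause of the other differences was not tested. Whether dim members such as Gabra6 lie above background cannot be read from these values.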
